A study of Mus musculus with 11 samples.

Results

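The 10 genes of sebaceous lipid metabolism followed here in mouse skin and skin tumors were Scd1, Scd3, Elovl3, Elovl6, Mc5r, Awat2, Dgat2, Soat1, Far2 and Fa2h. They were taken by symbol from the RPKM table (reads per gene, scaled by its length and by the size of the library), in which all 10 of 10 symbols were found among 24974 genes. The tissue came from mice painted on the back with DMBA, a mutagenic polycyclic hydrocarbon used to start skin tumors, given 3 times, 1 week apart, as 100 µg in a volume of 200 µl, and was collected at week 31. Every animal received DMBA, so no group is untreated skin. The 3 groups held WT skin in 3 libraries, Dlx3 KO skin in 3 and Dlx3 KO tumors in 5, where Dlx3 is a homeodomain regulator of keratinocyte and hair follicle differentiation, and the knockout was conditional (DLX3cKO). The promoter that drives the recombinase, the strain, the age and sex of the mice and the animal behind each sample are not given in the sources used here. Thus several samples may come from one mouse. P-values therefore measure the spread between these samples, some of which may not be separate animals.

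Sebaceous glands are holocrine glands attached to the hair follicle, whose cells fill with lipid droplets and then burst to release sebum. Mouse sebum holds wax esters and diesters, triacylglycerols and cholesterol esters, built from fatty acids that are elongated, desaturated, hydroxylated or reduced to fatty alcohols before they are esterified. Loss of Scd1 in mice gives the asebia phenotype with shrunken sebaceous glands, and loss of Mc5r, a receptor for melanocortin peptides, lowers sebum output. Several of the 10 genes also work outside the gland: Scd1 and Dgat2 are abundant in adipocytes, which lie under the dermis in whole skin.

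Promoter windows, from 250 bases before to 50 bases after the start site, were found for 5 of the 10 genes in the RefSeq table (GRCm38.p6). Those of Far2, Awat2 and Soat1 are shown because these genes moved together across the libraries, and that of Scd3 because it did not follow them. Capitals mark matches to the motifs searched on both strands, which were the E-box CACGTG, the NF-Y box CCAAT, the nuclear receptor element AGGTCA, the GC box GGGCGG and the TATA box TATAAA.
Far2, chr6:148047166-148047465, plus strand: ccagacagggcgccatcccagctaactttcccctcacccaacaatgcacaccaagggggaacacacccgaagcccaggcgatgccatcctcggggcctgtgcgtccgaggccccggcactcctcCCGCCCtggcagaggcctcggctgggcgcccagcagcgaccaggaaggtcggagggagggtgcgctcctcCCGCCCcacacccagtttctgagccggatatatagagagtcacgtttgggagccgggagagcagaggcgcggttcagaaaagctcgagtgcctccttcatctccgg
Awat2, chrX:100442668-100442967, minus strand: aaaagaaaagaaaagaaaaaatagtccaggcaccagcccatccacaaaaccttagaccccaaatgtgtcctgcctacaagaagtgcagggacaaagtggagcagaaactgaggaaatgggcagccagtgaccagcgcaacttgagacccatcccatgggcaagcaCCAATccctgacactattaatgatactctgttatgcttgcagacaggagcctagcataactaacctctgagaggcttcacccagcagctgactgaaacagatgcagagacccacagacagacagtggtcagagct
Soat1, chr1:156474279-156474578, minus strand: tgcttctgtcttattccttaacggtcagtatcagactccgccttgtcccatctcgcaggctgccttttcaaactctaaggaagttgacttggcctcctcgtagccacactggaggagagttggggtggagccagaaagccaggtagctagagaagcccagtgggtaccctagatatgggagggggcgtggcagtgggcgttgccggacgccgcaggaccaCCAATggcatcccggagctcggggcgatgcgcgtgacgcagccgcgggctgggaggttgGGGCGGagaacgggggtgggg
Scd3, chr19:44203038-44203337, plus strand: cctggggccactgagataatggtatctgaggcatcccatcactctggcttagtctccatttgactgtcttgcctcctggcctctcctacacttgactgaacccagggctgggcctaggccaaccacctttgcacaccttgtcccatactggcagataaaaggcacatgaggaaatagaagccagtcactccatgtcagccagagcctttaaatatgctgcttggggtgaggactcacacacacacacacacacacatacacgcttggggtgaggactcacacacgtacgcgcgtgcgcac
Far2 held the GC box on the reverse strand with its first base at positions -126 and -56 from the start site, Awat2 held CCAAT at -85, and Soat1 held CCAAT at -30 and the GC box at 29. No searched motif was in the Scd3 window, and Elovl6 held a reverse AGGTCA at -193. A second Awat2 window (chrX:100412538-100412837) held CCAAT on the reverse strand at -121 and the GC box at -70. Across the 32851 promoters of the same table, CCAAT was in 37.41%, the GC box in 35.66%, AGGTCA in 16.26%, TATAAA in 13.62% and the E-box in 7.15%. The motifs in these windows are thus common ones, and none of the 5 genes held an E-box or TATA box match. A match is a run of letters and not a measured binding site.

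Libraries had 29265111 to 75707445 alignments, and 14233 genes whose mean RPKM over all 11 libraries reached 0.5 were tested. Dlx3 itself stood at 49.9 RPKM in WT skin 1 and 89.9 RPKM in WT skin 3, at 4.08 to 8.88 RPKM in Dlx3 KO skin and at 1.34 to 7.61 RPKM in tumors, but at 7.35 RPKM in the library labelled WT skin 2. By its Dlx3 level that library goes against its label, but this level alone does not settle its genotype. Whether the label is right was not tested. The counts, medians and calls of comparisons with WT skin are given with and without that library. WT skin 1 and 3 and tumors 3 and 4 were low in Xist (at most 0.616 RPKM) and the other 7 libraries high (at least 10.1 RPKM), so by this marker all Dlx3 KO skins share one sex and the Dlx3-high WT skins the other, and genotype and sex cannot be told apart there. A sample sheet placed WT skin 1 to 3, Dlx3 KO skin 2 and 3 and tumor 5 in a first sequencing run and the rest in a second. Replicates within a group were least alike in tumors (lowest pairwise correlation 0.874) and WT skin (0.887) and most alike in Dlx3 KO skin (0.965).

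In Dlx3 KO skin, 7 of the 10 genes (Elovl3, Elovl6, Awat2, Dgat2, Soat1, Far2 and Fa2h) were higher in all 3 libraries than in any WT skin library, against 11.3% of all tested genes that did so. None of the 10 was lower in all 3, against 5.1% of all tested genes. In the limma fit across all tested genes, none of the 9 genes tested passed an adjusted p of 0.05, and neither did any other gene (0% of 14233). At an unadjusted p under 0.05 there were 3 of 9 (Elovl6, Far2 and Fa2h), beside 8.63% of all tested genes. Mc5r, with a mean of 0.450 RPKM, fell below the filter and was not tested there. The median log2 fold change of the 9 was 0.91, beside 0.06 for all tested genes. In tumors against Dlx3 KO skin, Scd1 and Elovl6 fell, which is 2 of 9 tested genes, against 6.56% of all tested genes called lower, 0.998% called higher and 7.55% called in either direction. At an unadjusted p under 0.05 there were 8 of 9, all except Scd3, beside 25.7% of all tested genes. In 4 of the 10 (Scd1, Elovl6, Mc5r and Dgat2) every tumor was below every Dlx3 KO skin, as in 14.8% of all tested genes, and in none was every tumor above, as in 4.65%. The median log2 fold change of the 9 tested genes was -1.64, beside -0.23 for all tested genes. In tumors against WT skin only Scd1 of the 9 fell, where 12% of all tested genes were called lower, 3.56% higher and 15.5% in either direction, and the median was -0.50 beside -0.14. At an unadjusted p under 0.05 there was 1 of 9, beside 29.5% of all tested genes. None of the 10 separated tumors from WT skin, against 3.89% of all tested genes higher in every tumor and 12.2% lower. The comparisons share samples, so a gene high in Dlx3 KO skin contributes to both of the first results.

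Without the library labelled WT skin 2, the Dlx3 KO skins lay above both remaining WT skins for 8 of the 10 genes (Scd1 besides the 7), as in 19.4% of all tested genes. They lay below both for Scd3, as in 13.2% of all tested genes. None of the 9 tested genes passed between the skins there, while 229 of 14233 genes did (1.61%), and the median log2 fold change was 1.21 beside 0.036 for all tested genes. Elovl6 was then 1.64 ± 0.54 (adjusted p = 0.242), Far2 2.13 ± 0.82 (0.345), Awat2 1.02 ± 0.49 (0.481) and Dgat2 1.45 ± 0.80 (0.570). Elovl3 was 1.17 ± 1.07 (adjusted p = 0.780), Soat1 0.68 ± 0.67 (0.802) and Scd3 -1.06 ± 0.58 (0.566). In tumors against the remaining WT skins, 0 of 9 passed, where 12.9% of all tested genes did, and the median was -0.33 beside -0.15. None of the 10 separated those groups, against 6.29% of all tested genes higher in every tumor and 18.4% lower. The tumor differences of Awat2 and Fa2h from WT skin then changed sign, to 0.013 ± 0.45 (adjusted p = 0.989) and 0.43 ± 0.97 (adjusted p = 0.833). Of the lists described further on, tumors against the remaining WT skins gave 13 of 15 adipocyte markers, 14 of 14 hair shaft markers, 12 of 12 muscle markers and 3 of 20 genes of fatty acid synthesis (Mlxipl, Nr1h3 and Acsl3) lower. Among sebaceous regulators Myc and Ppard were again the 2 that rose (list median -0.34), and among keratinocyte markers 3 of 11 rose and 0 fell (median 0.998).

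**Figure D1:**
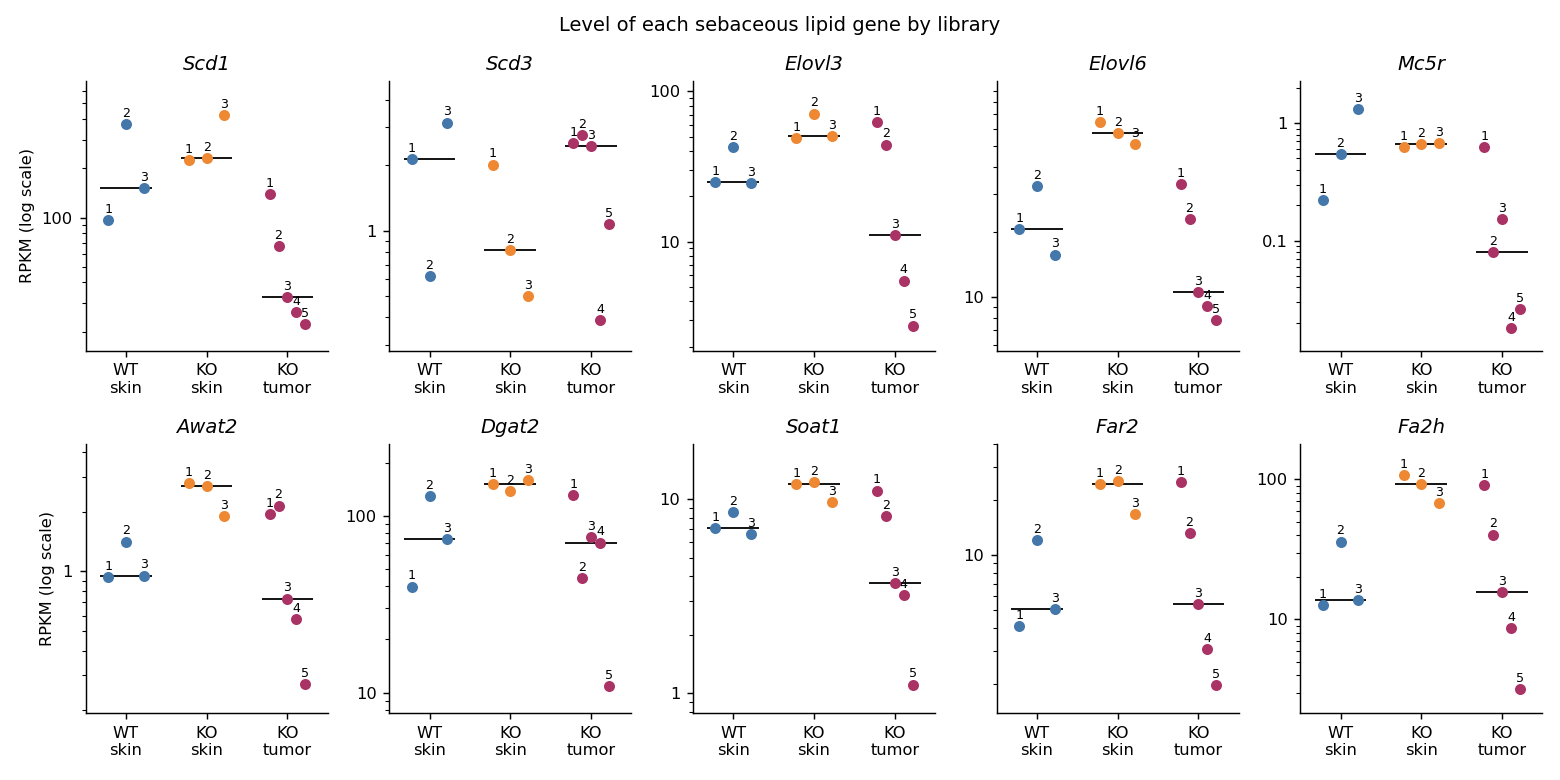
RPKM of each of the 10 genes (log axis) in WT skin, Dlx3 KO skin and Dlx3 KO tumors, with 1 numbered point per library and a bar at the group median. In 7 panels the 3 Dlx3 KO skin points lie above all WT skin points, and tumor 1 is the highest tumor in every panel but those of Scd3 and Awat2. The lowest point is tumor 5 in 8 panels and tumor 4 in those of Scd3 and Mc5r.

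Levels per length differed widely between the genes. Over the 11 libraries the mean was highest for Scd1 at 162 RPKM, followed by Dgat2 at 93.4, Fa2h at 44.5, Elovl3 at 35.2 and Elovl6 at 29.6 RPKM. Far2 had a mean of 12.4, Soat1 of 7.60, Scd3 of 1.68, Awat2 of 1.49 and Mc5r of 0.450 RPKM. Neighbours in this order, such as Elovl3 and Elovl6 or Scd3 and Awat2, had ranges over libraries that overlapped almost wholly, so only the broad order stands. The highest library was a Dlx3 KO skin for 8 of the 10 genes and WT skin 3 for Scd3 and Mc5r. The lowest was tumor 5 for 8 genes and tumor 4 for Scd3 and Mc5r.

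The desaturases put a double bond into saturated fatty acyl-CoA. Scd1, the main skin and adipose form, lies on chromosome 19 (44394455 to 44407879, minus strand, GENCODE M21 on mm10). It was at 96.0, 375 and 151 RPKM in WT skin 1 to 3, at 225, 230 and 423 RPKM in Dlx3 KO skin and at 139, 66.8, 32.5, 26.3 and 22.1 RPKM in tumors 1 to 5. All 5 tumors lay below all 3 Dlx3 KO skins, while the skins overlapped because the library labelled WT skin 2 was high. The group means were 207 ± 148 RPKM in WT skin (SD, n = 3), 293 ± 113 in Dlx3 KO skin (SD, n = 3) and 57.3 ± 48.8 in tumors (SD, n = 5). Tumors were 6.21-fold lower than Dlx3 KO skin on the log2(RPKM + 0.5) scale (log2 fold change -2.63 ± 0.60 SE, adjusted p = 0.0249) and 3.90-fold lower than WT skin (-1.96 ± 0.60, adjusted p = 0.0478). Dlx3 KO skin against WT skin gave 0.67 ± 0.67 with an adjusted p of 0.837. Without the library labelled WT skin 2 the Scd1 skin groups no longer overlapped and the difference was 1.21 ± 0.69 (adjusted p = 0.579).

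Scd3, a paralog expressed mainly in sebaceous and Harderian glands, lies nearby on chromosome 19 (44203269 to 44244016, plus strand). It stood at 2.14, 0.621 and 3.14 RPKM in WT skin, at 2.02, 0.818 and 0.501 RPKM in Dlx3 KO skin and at 2.52, 2.75, 2.46, 0.390 and 1.07 RPKM in tumors. The 3 groups overlapped, and the libraries highest in Scd1 (Dlx3 KO skin 3 and WT skin 2) were among the 3 lowest in Scd3. The ratio of Scd1 to Scd3 ran from 13.2 in tumor 3 to 845 in Dlx3 KO skin 3. None of the 3 comparisons called it: -0.57 ± 0.57 in Dlx3 KO skin against WT skin (adjusted p = 0.839), 0.49 ± 0.51 in tumor against Dlx3 KO skin (adjusted p = 0.571) and -0.07 ± 0.51 in tumor against WT skin (adjusted p = 0.946). Of the 50-base windows of the longest coding Scd3 transcript, 4.86% were identical to a window of Scd1 and 12.8% lay within 2 mismatches of one, so reads from these stretches could be counted for either gene. The remaining paralogs on the list behaved apart from Scd1: Scd2, the widely expressed form, gave -0.06 ± 0.52 in tumor against Dlx3 KO skin (adjusted p = 0.951), and Scd4 was under the filter. For Elovl3, Elovl6, Awat2, Dgat2, Soat1 and Far2, none of the windows came within 2 mismatches of the paralogs compared.

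The elongases add carbons to fatty acyl-CoA. Elovl6, which extends palmitate and its monounsaturated form, is on chromosome 3 (129532355 to 129638495, plus strand). Its level was 20.6, 32.7 and 15.7 RPKM in WT skin, 64.2, 57.2 and 51.0 RPKM in Dlx3 KO skin and 33.3, 23.0, 10.5, 9.09 and 7.81 RPKM in tumors. Every Dlx3 KO skin library was above every library of the other groups, and tumors 1 and 2 lay within or just above the WT skin range. Tumors were 3.91-fold lower than Dlx3 KO skin (-1.97 ± 0.44 SE, adjusted p = 0.0223), and Elovl6 was 1.36 ± 0.49 higher on the log2 scale in the knockout skin than in the WT skin, without passing (adjusted p = 0.437). Elovl3, which makes the very long saturated and monounsaturated chains of sebum and is needed for a normal glossy coat in mice, is on chromosome 19 (46131897 to 46135694, plus strand). Elovl3 had 24.8, 42.3 and 24.4 RPKM in WT skin, 49.0, 71.1 and 50.2 RPKM in Dlx3 KO skin and 62.3, 44.3, 11.03, 5.51 and 2.76 RPKM in tumors. The skin groups did not overlap, whereas the tumors spread from within the Dlx3 KO skin range to below all skins. No Elovl3 comparison passed: 0.91 ± 0.92 between the skins (adjusted p = 0.839), -1.96 ± 0.83 in tumor against Dlx3 KO skin (adjusted p = 0.164) and -1.05 ± 0.83 in tumor against WT skin (adjusted p = 0.438).

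Wax esters need a fatty alcohol and an acyltransferase. Far2, the reductase that turns fatty acyl-CoA into fatty alcohol, is on chromosome 6 (148047259 to 148182758, plus strand). It was at 4.11, 12.1 and 5.09 RPKM in WT skin, at 24.3, 25.2 and 16.6 RPKM in Dlx3 KO skin and at 25.0, 13.1, 5.42, 3.08 and 1.963 RPKM in tumors. The skins did not overlap, and the 5 tumors covered the whole span from the Dlx3 KO skin level to below WT skin. The log2 fold changes of Far2 were 1.69 ± 0.75 (adjusted p = 0.556) between the skins, -1.64 ± 0.67 (adjusted p = 0.152) in tumor against Dlx3 KO skin and 0.05 ± 0.67 (adjusted p = 0.972) in tumor against WT skin. Awat2, an acyltransferase that joins acyl-CoA to fatty alcohol, is on chromosome X (100402221 to 100442717, minus strand). Its level was low throughout, at 0.937, 1.41 and 0.954 RPKM in WT skin, 2.79, 2.69 and 1.90 RPKM in Dlx3 KO skin and 1.94, 2.14, 0.731, 0.577 and 0.271 RPKM in tumors. Awat2 had the same layout, with skins that did not overlap and tumors 1 and 2 above tumors 3 to 5. Its log2 fold changes were 0.89 ± 0.43 (adjusted p = 0.602), -1.01 ± 0.38 (adjusted p = 0.127) and -0.12 ± 0.38 (adjusted p = 0.871) in the same order, and at these levels they are damped by the added 0.5 RPKM. The related Awat1, which prefers other alcohol substrates, was higher, at 1.74 to 33.8 RPKM over the 11 libraries, and gave -1.93 ± 0.83 in tumor against Dlx3 KO skin (adjusted p = 0.175).

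Fa2h, the hydroxylase that gives 2-hydroxy fatty acids for sebum waxes and sphingolipids, is on chromosome 8 (111345135 to 111393824, minus strand). It was at 12.6, 35.9 and 13.7 RPKM in WT skin, at 108, 92.6 and 68.2 RPKM in Dlx3 KO skin and at 91.1, 40.3, 15.7, 8.69 and 3.18 RPKM in tumors. Of the 10 genes it had the largest ratio of group means between the skins, 4.32, from a mean of 89.5 ± 20.0 RPKM (SD, n = 3) against 20.7 ± 13.2 RPKM (SD, n = 3), with groups that did not overlap. The log2 fold change of 2.23 ± 0.94 still did not pass (adjusted p = 0.536), and was 2.70 ± 1.06 without the library labelled WT skin 2 (adjusted p = 0.352). In tumor against Dlx3 KO skin Fa2h gave -2.27 ± 0.84 (adjusted p = 0.122), with tumor 1 inside the Dlx3 KO skin range. In tumor against WT skin it gave -0.05 ± 0.84 (adjusted p = 0.979), with tumors on both sides of all WT skins.

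Dgat2 and Soat1 act in the making of other neutral lipids of sebum, triacylglycerols and cholesterol esters. Dgat2, which adds the last acyl chain to triacylglycerol and is also strong in adipocytes, is on chromosome 7 (99153658 to 99182719, minus strand). Dgat2 had 39.9, 130 and 73.9 RPKM in WT skin, 151, 138 and 160 RPKM in Dlx3 KO skin and 131, 44.5, 76.3, 70.7 and 10.9 RPKM in tumors. All Dlx3 KO skins lay above all WT skins and all tumors, though tumor 1 and the library labelled WT skin 2 came close to the lowest of them. The log2 fold changes of Dgat2 were 1.03 ± 0.73 (adjusted p = 0.746), -1.54 ± 0.65 (adjusted p = 0.168) and -0.50 ± 0.65 (adjusted p = 0.660) in the 3 comparisons in order. Soat1, which esterifies cholesterol, is on chromosome 1 (156424525 to 156474331, minus strand). Its level was 7.08, 8.63 and 6.62 RPKM in WT skin, 11.98, 12.3 and 9.69 RPKM in Dlx3 KO skin and 11.1, 8.20, 3.69, 3.21 and 1.10 RPKM in tumors. The skins did not overlap, but the Soat1 difference between them was small, 0.57 ± 0.57 (adjusted p = 0.834). In tumors Soat1 gave -1.30 ± 0.51 against Dlx3 KO skin (adjusted p = 0.141) and -0.72 ± 0.51 against WT skin (adjusted p = 0.383).

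Mc5r, the melanocortin receptor of exocrine glands, is on chromosome 18 (68337596 to 68342446, plus strand). It was the lowest of the 10, at 0.220, 0.546 and 1.32 RPKM in WT skin, 0.629, 0.661 and 0.677 RPKM in Dlx3 KO skin and 0.626, 0.0794, 0.152, 0.0179 and 0.0261 RPKM in tumors. The Dlx3 KO skins were close together and lay inside the wide WT skin range, and all tumors were below them, tumor 1 only just. Tested without the filter on low values, over 23831 genes, Mc5r gave 0.06 ± 0.35 between the skins (adjusted p = 1), -0.83 ± 0.31 in tumor against Dlx3 KO skin (adjusted p = 0.185) and -0.77 ± 0.31 in tumor against WT skin (adjusted p = 0.162). Of the other 11 genes of the melanocortin list, 10 were in the table and 3 were tested. Mrap, an accessory protein of melanocortin receptors that is also strong in adipocytes, fell in tumors against Dlx3 KO skin (-2.20 ± 0.47, adjusted p = 0.0179) and against WT skin (-2.05 ± 0.47, adjusted p = 0.0137). Agrp and Mc1r did not pass in any comparison, although Mc1r fell against WT skin without the library labelled WT skin 2, and Asip was not analysed here.

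**Figure D2:**
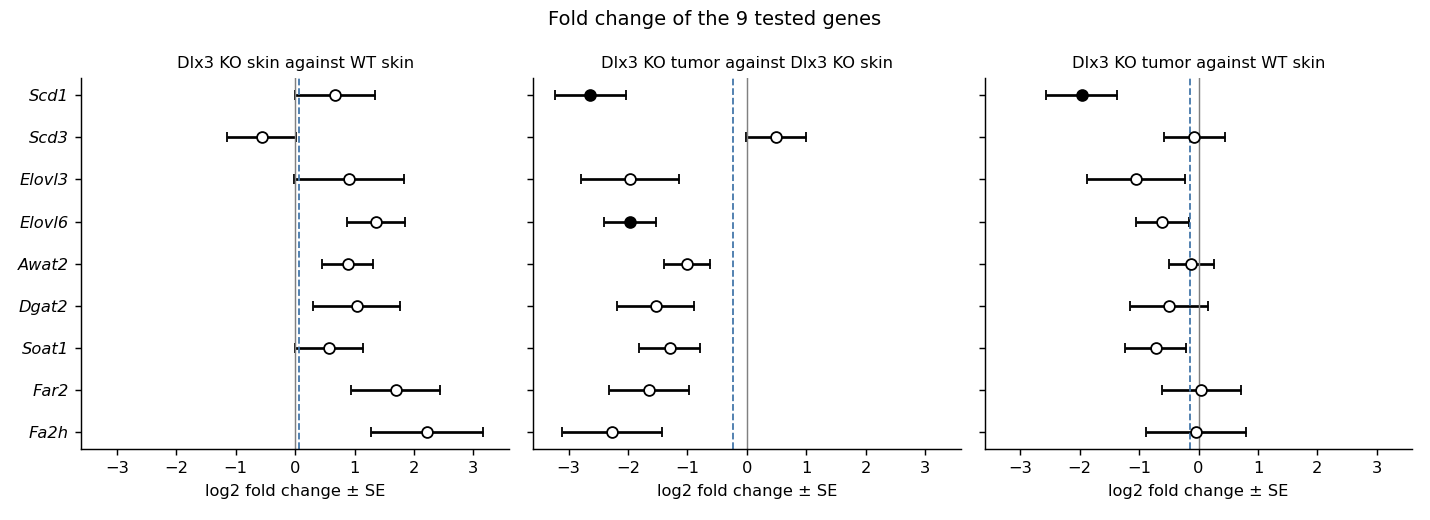
log2 fold change ± SE of the 9 tested genes in the 3 comparisons, from limma on log2(RPKM + 0.5) over 11 libraries. Filled points passed an adjusted p of 0.05 (Scd1 and Elovl6 in the middle panel, Scd1 in the right one) and the dashed line is the median of all 14233 tested genes.

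The 5 tumors were spread widely. Set against the Dlx3 KO skin mean of each gene, the median over all 10 genes was 96.9% in tumor 1, 52.3% in tumor 2, 23.9% in tumor 3, 14.9% in tumor 4 and 8.23% in tumor 5. In WT skin 1 to 3 it was 34.7%, 66.0% and 46.2%, and in the Dlx3 KO skins, which set the scale, 108%, 102% and 87.0%. The median of tumor 1 was thus at the Dlx3 KO skin level, with Scd1 at 47.4% and Elovl6 at 57.9% as its lowest. Tumor 4 ran from 2.73% (Mc5r) to 47.2% (Dgat2), and tumor 5 from 3.55% (Fa2h) to 96.2% (Scd3). The library labelled WT skin 2 was closer to Dlx3 KO skin than were the other WT skins, from 40.1% for Fa2h to 128% for Scd1. Without tumor 1, limma called 7 of the 9 genes lower against Dlx3 KO skin (Scd1, Elovl3, Elovl6, Awat2, Soat1, Far2 and Fa2h), where 20.1% of all tested genes were called in either direction. The calls of Scd1 and Elovl6 were lost when any 1 Dlx3 KO skin or tumor 3 was left out, at adjusted p from 0.0609 to 0.129 for Scd1 and from 0.0566 to 0.0808 for Elovl6, and that of Scd1 also without tumor 4 (0.0526) or tumor 5 (0.0501). Against WT skin the Scd1 call held only without WT skin 1 or tumor 1 among the libraries left out in turn, and leaving out any 1 of the others, Dlx3 KO skins included, gave adjusted p from 0.0593 to 0.184, the latter without the library labelled WT skin 2 (-1.42 ± 0.63). Rn45s, the ribosomal RNA precursor, stood at 11833 RPKM in tumor 5 and 10021 RPKM in WT skin 1 against 612 to 3242 RPKM in the other 9 libraries, and these were the libraries with the lowest median of their groups. Without both, 0 of 9 genes passed in tumor against Dlx3 KO skin, where 4.78% of all tested genes did (Scd1 -2.38 ± 0.58, adjusted p = 0.0538, and Elovl6 -1.76 ± 0.45, adjusted p = 0.0600). Against WT skin it was also 0 of 9, where 12.8% of all tested genes passed (Scd1 -2.15 ± 0.66, adjusted p = 0.0631). The part of ribosomal RNA in these results was not tested.

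**Figure D3:**
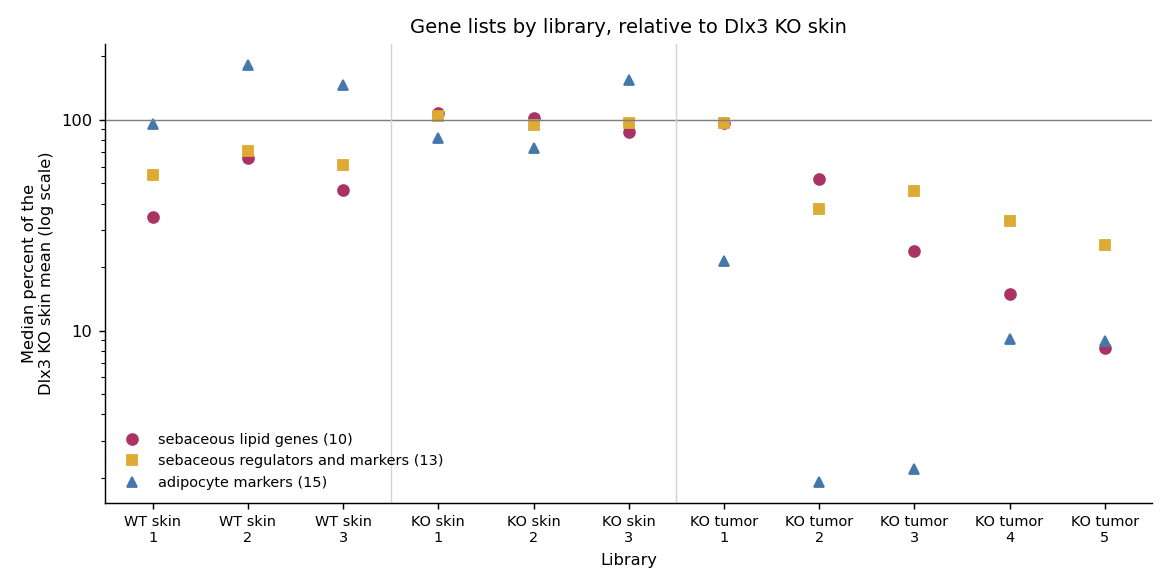
For each library, the median over a list of each gene's RPKM as a percent of its Dlx3 KO skin mean (log axis), for the 10 sebaceous lipid genes, 13 sebaceous regulators and markers and 15 adipocyte markers. The sebaceous lipid genes are at 96.9% in tumor 1 and 8.23% in tumor 5, while adipocyte markers are at 21.5% or less in every tumor.

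Across the 11 libraries the genes other than Scd3 varied together. Pearson correlations of log2(RPKM + 0.5) over the 36 pairs without Scd3 had a median of 0.836 and ran from 0.530 (Awat2 and Mc5r) to 0.992 (Far2 and Fa2h). The 9 pairs with Scd3 had a median of 0.052 and ran from -0.150 to 0.175. These are descriptions of 11 libraries that fall into 3 groups and share depth and tissue makeup. The ratio of Fa2h to Far2 stayed between 1.62 and 4.44 while Far2 varied 12.9-fold and Fa2h 33.9-fold between their lowest and highest libraries, the ratio being 1.62 in tumor 5 and 2.69 to 4.44 elsewhere. Elovl3 and Soat1 had a correlation of 0.979, and Awat2 and Fa2h of 0.968.

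**Figure D4:**
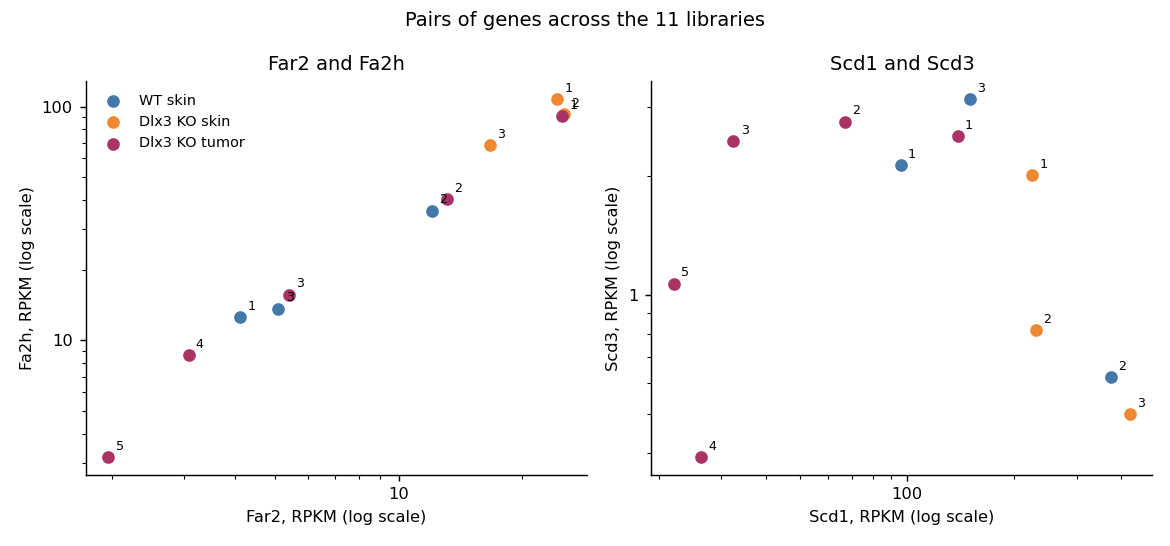
RPKM of Fa2h against Far2 and of Scd3 against Scd1 (both axes log scale), 1 numbered point per library in the color of its group. Far2 and Fa2h lie along a line across groups (r = 0.992 on the log2 scale), and Scd1 and Scd3 do not (r = -0.135).

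Outside the 10, the tested genes with the pattern most like the mean of the 9 tested members over 11 libraries were Mgll (r = 0.979), a lipase of monoacylglycerol, Cers4 (0.977), a ceramide synthase, Pxmp4 (0.961), Ano7 (0.955), Lhpp (0.944), Tmcc3 (0.943), Dgat2l6 (0.942), Pctp (0.942), Secisbp2l (0.941) and Pank1 (0.941). Mgll had 36.5, 100 and 47.9 RPKM in WT skin, 149, 114 and 96.4 RPKM in Dlx3 KO skin and 105, 44.9, 19.5, 16.1 and 6.67 RPKM in tumors. Dgat2l6, an acyltransferase related to Dgat2 and Awat2, followed the same layout at 0.227 to 5.13 RPKM. The single gene most like Scd1 was Tgoln1 (0.978), and the one most like Dgat2 was Slc22a23 (0.978). The nearest to Scd3 reached only 0.761 (Rbm15), lower than the nearest gene of any other tested member.

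Markers of other cells were measured beside these genes. Of 14 sebaceous regulators and cell markers, 13 were tested. All 13 had a positive log2 fold change in Dlx3 KO skin against WT skin (median 0.63, 0 called), beside 8063 of all 14233 tested genes. Without the library labelled WT skin 2 all 13 were again positive (median 0.69, 0 called), beside 7673 of 14233 genes. Positive values between the skins were not particular to this list. They were seen in 9 of 11 keratinocyte markers (median 0.65) and 12 of 13 lipid droplet genes (0.63). For fatty acid synthesis it was 13 of 20 (0.29), and for paralogs and ester enzymes 9 of 16 (0.45). Without that library the keratinocyte median was 1.05 and the lipid droplet median 0.94. Of the 13 sebaceous regulators and markers, 1 fell in tumor against Dlx3 KO skin, and their median was -1.15. It was Prdm1, a transcription factor of sebocyte precursors and of differentiating keratinocytes (-1.32 ± 0.34, adjusted p = 0.0397). Krt79, a keratin of the sebaceous duct and the upper follicle, had 147, 695 and 144 RPKM in WT skin, 1636, 972 and 793 RPKM in Dlx3 KO skin and 941, 98.6, 97.7, 75.5 and 166 RPKM in tumors, and missed the threshold (-2.73 ± 0.78, adjusted p = 0.0583). As for Elovl3, Awat2, Soat1, Far2 and Fa2h, its level in tumor 1 lay within the Dlx3 KO skin range. When the library labelled WT skin 2 was left out of the shared fit, Krt79 passed in tumor against Dlx3 KO skin and Prdm1 did not. The cause of these changes was not tested. Pparg, the nuclear receptor that drives both sebocyte and adipocyte differentiation, was at 3.63, 2.68, 10.97, 1.002 and 0.301 RPKM in tumors and did not pass (-1.28 ± 0.67, adjusted p = 0.254). Against WT skin 2 of the 13 rose in tumors, Myc (1.46 ± 0.27, adjusted p = 0.0044) and Ppard (1.55 ± 0.39, adjusted p = 0.0211), both also active in keratinocytes. A negative log2 fold change was seen there in 10 of the 13 (median -0.53), beside 8774 of all 14233 tested genes. In bulk tissue, fewer cells of a type and less RNA per cell cannot be told apart.

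Adipocyte markers moved differently between the libraries. Of 15, 13 fell in tumor against Dlx3 KO skin (median -3.26) and 14 against WT skin (median -3.92). In Dlx3 KO skin against WT skin 14 of 15 had a negative log2 fold change, beside 6170 of all 14233 tested genes. These markers had a median of -0.73 there with 0 called, and of -0.48 with 0 called without the library labelled WT skin 2. Their summed level was 3313 to 4743 RPKM in WT skin, 1886 to 3919 RPKM in Dlx3 KO skin and 475 to 3026 RPKM in tumors, where Fabp4 alone made up 2984 RPKM in tumor 3, and none was at 0 in any library. Adipoq, the adipokine adiponectin, had 65.7, 91.4 and 91.9 RPKM in WT skin, 33.1, 35.0 and 86.1 RPKM in Dlx3 KO skin and 8.76, 0.524, 0.473, 4.25 and 4.61 RPKM in tumors. The median percent of the Dlx3 KO skin mean was 21.5% in tumor 1 for adipocyte markers and 96.9% for the sebaceous lipid genes, and in tumor 2 the 2 values were 1.92% and 52.3%. The part of adipocytes in the lower Scd1 and Dgat2 of tumors was not tested.

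All 12 skeletal muscle markers also fell in tumors in both comparisons (medians -6.27 and -7.00), and 4 of 14 hair shaft markers fell against Dlx3 KO skin and 14 of 14 against WT skin. In Dlx3 KO skin against WT skin, 6170 of all 14233 tested genes had a negative log2 fold change. So had 14 of 14 hair shaft markers (median -3.43), with 0 called. Without the library labelled WT skin 2, 10 of these 14 fell (median -4.15). Krt25, Krt27, Krt71 and Tchh, counted on this list, are mainly genes of the inner root sheath, and all were among the 10. Of 11 tested markers of basal and suprabasal keratinocytes, 2 rose in tumor against Dlx3 KO skin (Krt14, 1.79 ± 0.43, adjusted p = 0.0298, and Itga6, 1.01 ± 0.28, adjusted p = 0.0479) and 0 fell. A negative log2 fold change was seen in 7 of the 11 (median of the 11 -1.30), beside 10011 of all 14233 tested genes. Without the library labelled WT skin 2 only Krt14 passed there, and Krt14 was also the 1 of 11 that rose between the skins, where 0 had passed with that library. In tumor against WT skin 3 of the 11 rose and 1 fell (median 0.35). Their summed level was 5710 to 51218 RPKM in WT skin, highest in the library labelled WT skin 2, 30350 to 31530 RPKM in Dlx3 KO skin and 15815 to 46870 RPKM in tumors. The hair shaft list summed to 8146 and 11025 RPKM in WT skin 1 and 3. It summed to 849 RPKM in the library labelled WT skin 2. In Dlx3 KO skin the sum was 90.2 to 914 RPKM and in tumors 23.1 to 222 RPKM. Of the sum in WT skin 1, Krt25, Krt27, Krt71 and Tchh gave 1044, 1448, 1412 and 930 RPKM. In WT skin 3 they gave 1537, 1431, 2735 and 1105 RPKM, so inner root sheath genes made up a large part. The muscle sum fell from 5470 to 18795 RPKM in skins to 26.3 to 593 RPKM in tumors. The part of tissue makeup in the results for the sebaceous lipid genes was not tested.

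The upstream pathway was followed as a list of its own. Of 20 genes of fatty acid synthesis and its control, 0 rose and 3 fell in tumor against Dlx3 KO skin, with a median of -0.71: Mlxipl, the carbohydrate response factor ChREBP (-2.56 ± 0.34, adjusted p = 0.00075), Nr1h3, the oxysterol receptor LXR alpha (-1.64 ± 0.34, adjusted p = 0.0153), and Acacb, an acetyl-CoA carboxylase of muscle and fat (-2.31 ± 0.53, adjusted p = 0.0248). These 3 are known from adipose tissue or muscle as well, and the part of those tissues in their lower levels was not tested. Fasn, the fatty acid synthase, was at 24.8, 18.2, 23.2, 14.0 and 11.3 RPKM in tumors against 22.9, 28.3 and 74.9 RPKM in Dlx3 KO skin and did not pass (-1.04 ± 0.55, adjusted p = 0.257). Srebf1, which drives Scd1 and Fasn, gave -0.54 ± 0.30 (adjusted p = 0.278). In Dlx3 KO skin against WT skin 0 of 20 passed, and the smallest p was that of Hsd17b12, an enzyme of the elongation cycle (1.43 ± 0.35, adjusted p = 0.256). Against WT skin 4 fell in tumors (Mlxipl, Nr1h3, Acacb and Thrsp), and the median was -0.53, beside -0.50 for the sebaceous lipid genes. The list medians between the skins were 0.29 with and 0.61 without the library labelled WT skin 2, with 0 called in each.

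Of 16 tested paralogs and ester-forming enzymes, 0 rose and 3 fell in tumor against Dlx3 KO skin, with a median of -0.83. They were Lpin1 (-2.33 ± 0.33, adjusted p = 0.0012), Gpam (-1.84 ± 0.36, adjusted p = 0.0109) and Gpat3 (-1.23 ± 0.27, adjusted p = 0.0199), enzymes of the early glycerolipid steps before Dgat2. Against WT skin 1 rose, Degs1, a desaturase of dihydroceramide (1.69 ± 0.25, adjusted p = 0.0010), and 2 fell. Of 13 tested genes of lipid droplets and lipid handling, 1 rose and 4 fell in tumor against Dlx3 KO skin. Fabp5, the epidermal fatty acid binding protein, rose (1.73 ± 0.38, adjusted p = 0.0210), from 894 to 1263 RPKM in Dlx3 KO skin to 1472 to 5417 RPKM in tumors, and Plin5, Cd36, Pnpla2 and Pnpla3 fell. Plin2, the coat protein of sebocyte droplets, was at 15.5 to 53.6 RPKM in tumors against 66.8 to 79.4 RPKM in Dlx3 KO skin, groups that did not overlap, and did not pass (-1.02 ± 0.37, adjusted p = 0.114). In Dlx3 KO skin against WT skin 0 genes of both lists passed, and 1, Degs1, rose without the library labelled WT skin 2.

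Run and sex gave these values within their own groups. In the first run alone (WT skin 1 to 3, Dlx3 KO skin 2 and 3), the median log2 fold change of the 9 genes between the skins was 1.01, and with run as a term it was 0.53. With the Xist level as a term it was 0.64, and among high-Xist libraries, where the only WT skin is the library labelled WT skin 2, it was 0.41. In tumor against Dlx3 KO skin the median was -3.09 in the first run, which holds tumor 5 only, and -1.24 in the second, which holds Dlx3 KO skin 1 only. In the second run 0 of 9 genes passed, where 1.43% of all tested genes did. Among high-Xist libraries the median was -1.43, and 0 of 9 passed, beside 1.91% of all tested genes. In tumor against WT skin the low-Xist libraries alone (tumors 3 and 4 against WT skin 1 and 3) gave Scd1 at -2.02 ± 0.35 (adjusted p = 0.000139) and Elovl3 at -1.59 (adjusted p = 0.0105), the 2 of 9 genes that fell there, where 14.0% of all tested genes passed. A lone sample in such a fit is assumed to vary like the other groups.

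In the authors' deposited table, whose ratios compare means on a log scale, no gene of the 10 had a q-value under 0.05. That table gives Elovl6 a ratio of 0.249 in tumor against Dlx3 KO skin (q-value 0.0785) and Scd1 a ratio of 0.160 (q-value 0.0870). The authors' deposited table gives Fa2h a ratio of 4.77 in Dlx3 KO skin against WT skin with a q-value of 0.779.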

How the data were processed

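Libraries were made from total RNA after removal of ribosomal RNA and read from one end over 50 bp, per the labels' protocols. The submitters' processing notes name bcl2fastq 2.20.0.422, TopHat2 2.1.1, Bowtie and Partek, and the build mm10. Per the file headers, the RPKM of each gene are the authors' own values on a linear scale. The count of alignments per library comes from a deposited sample sheet. The p-value, q-value and ratio of each gene in the authors' deposited table come from their ANOVA. RPKM are shares of a library, so a change in abundant transcripts moves the others. No read counts per gene entered, so precision rests on the spread between libraries.

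The scale used was log2(RPKM + 0.5). The 14233 of 24974 genes whose mean reached 0.5 RPKM were tested in one fit of 3 groups. The tool was limma 3.58.1 (R 4.3.3), using lmFit and contrasts.fit with 8 residual degrees of freedom and a robust, trended eBayes step. Tests were two-sided, adjusted by Benjamini and Hochberg over all tested genes within a comparison, and called at an adjusted p under 0.05. The script was tested on simulated data with 200 changed genes. The members, the 9 gene lists, the tests and the alternatives were chosen with earlier results of these data known. Named genes are the 10 members, up to 4 tested genes of each list with the smallest p per comparison, Pparg, Srebf1, Fasn, Awat1, Plin2 and Krt79, the 10 genes most alike to the members' mean and the gene most alike to each member, without predicted, clone-named, small RNA and immune receptor genes; 1 further gene of this rule is not reported here. Scd2, Scd4, Adipoq, Fabp4 and Pnpla3 were named after their values were seen. Positions are from GENCODE M21, and promoters from RefSeq. Python 3.11.15 with numpy 2.4.6, pandas 2.3.3 and matplotlib 3.10.9 made tables and figures.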

Additional observations from a re-analysis of the deposited data

Results flagged for a closer look

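Within the 5 tumors, 76 genes (the 10 members, the list genes that the rule for named genes took, and Pparg, Srebf1, Fasn, Awat1, Plin2 and Dlx3) were searched for a library far from the rest by Dixon's gap test, and 17 had one. The test marks about 1 in 20 groups by chance when values are normally distributed and the groups are independent. Here RPKM were taken on the linear scale and many of the genes varied together. The count of 17 can therefore not be set against that rate. Among the sebaceous lipid genes there was 1, Mc5r, at 0.626 RPKM in tumor 1 against 0.152 RPKM in the next tumor. Tumor 1 was also the high one for Krt79 (941 RPKM), Krt15 (443 RPKM), Krt2 (2.07 RPKM) and Krt36 (2.45 RPKM) among keratins. Among lipid genes it was the high one for Cd36 (18.1 RPKM), Gpat4 (13.0 RPKM), Gpam (8.50 RPKM), Acacb (5.51 RPKM), Plin4 (4.41 RPKM) and Plin5 (0.365 RPKM). Tumor 5 was the high one for muscle markers: Ckm (66.7 RPKM), Pvalb (58.3 RPKM), Tcap (32.6 RPKM), Ryr1 (1.57 RPKM), Neb (0.788 RPKM) and Ttn (0.407 RPKM).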

How the results depend on the processing

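There were 26 alternatives between the skins, of which high-Xist libraries alone hold only 1 WT skin. In the others 0 of 9 genes passed, where 0% to 1.61% of all tested genes did. The direction held apart from Scd1 (-0.012 with the Xist level as a term, -0.42 among high-Xist libraries) and Scd3 (0.41 among high-Xist libraries). In tumor against Dlx3 KO skin, where 2 genes passed, other pseudocounts, filters, scalings and limma settings and the compared groups alone also gave 2, run as a term 3, library weights 6 and the first run alone 8. Of all tested genes, 7.55% passed in the reported fit, 7.62% with run as a term, 41.9% with weights and 11.4% in the first run. The count was 0 with the Xist term, in high-Xist libraries alone, with the replicate block and without the 2 libraries highest in Rn45s. There 1.91% to 4.78% of all tested genes passed. Leaving out 1 library gave 0 to 7, where 2.44% to 20.1% of all tested genes passed. Scd3 was -0.16 in the second run alone. In tumor against WT skin, where 1 gene passed, no filter, library weights, run as a term, high-Xist libraries alone, the replicate block, leaving out the 2 Rn45s-high libraries and the compared groups alone gave 0, the low-Xist libraries alone 2 (14.0% of all tested genes) and the first run alone 5 (11.3%, against 15.5% in the reported fit), and leaving out 1 library gave 0 to 1. The causes were not tested.

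In tumor against WT skin several differences near 0 changed sign. Scd3 was 0.088 with median-ratio scaling, 0.37 with quantile normalization, 0.086 with weights, 1.15 among high-Xist libraries, 0.16 without the Rn45s-high libraries and -0.56 to 0.29 with 1 library left out. Awat2 was 0.34 with quantile normalization, 0.17 with weights, 0.036 without the Rn45s-high libraries and -0.34 to 0.11 with 1 library left out. Far2 was -0.87 with run as a term, -1.48 in the first run, -0.22 with the Xist term, -0.41 and -0.14 among high-Xist and low-Xist libraries and -0.41 to 0.48 with 1 library left out. Fa2h was 0.16 and 0.13 with the scalings, 0.38 with weights, 0.27 without the Rn45s-high libraries and -0.63 to 0.53 with 1 library left out. Dgat2 was 0.43 among low-Xist libraries and -0.93 to 0.044 with 1 library left out. Median-ratio and quantile scaling moved the median of all genes from -0.229 to 0.017 and 0.094 for tumors over knockout skin, and from -0.144 to 0.045 and 0.137 for tumors over WT skin.

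As far as the labels tell, same-numbered libraries share only a number. Correlations of their deviations from the group means ran from -0.406 to 0.185. With so few libraries per group, these cannot show whether samples came from the same mouse. With the replicate block, 0 members passed in each comparison. Of all tested genes, 0% passed between the skins, 2.51% in tumor against Dlx3 KO skin and 6.93% in tumor against WT skin. Scd1 and Elovl6 were then -2.05 (adjusted p = 0.199) and -1.49 (adjusted p = 0.0641) in tumor against Dlx3 KO skin. In tumor against WT skin Scd1 was -1.38 (adjusted p = 0.265). There Scd3 was 0.48, Elovl3 0.089, Awat2 0.33, Dgat2 0.072 and Fa2h 1.05. The second run alone and the low-Xist libraries alone were chosen after seeing the data. Among the lists, calls in tumor against Dlx3 KO skin ranged from 0 to 13 for adipocyte markers, 0 to 11 for sebaceous regulators, 0 to 7 for keratinocyte markers, 0 to 10 for hair shaft markers, 11 to 12 for muscle markers, 1 to 8 for fatty acid synthesis, 0 to 9 for paralogs and ester enzymes and 0 to 12 for lipid droplets over 27 alternatives.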
